A study of Mus musculus with 20 samples.

Results

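A set of 10 genes of the hypoxia response that lie outside glycolysis was followed through 20 RNA-seq libraries of mouse macrophages, 10 of the 56748 genes in the count tables. They were chosen by name: Hif1a, the 2 hydroxylases Egln1 and Egln3, and 7 genes induced by HIF (Bnip3, Bnip3l, Vegfa, Ddit4, Hilpda, Ankrd37 and Ndrg1). The choice was made because hypoxia genes were lower in stimulated iNOS KO cells, so the values of that comparison are given as a description with no test. The libraries came from 2 experiments. The first holds 12 libraries labelled BMDM (bone marrow-derived macrophages), grown with M-CSF from C57BL/6J mice 6 to 12 weeks old per the labels, of either sex. The methods give a narrower age range and a Jackson Laboratory Nos2 knockout strain of B6.129P2 background for iNOS KO. Its groups were wildtype and iNOS KO, each left unstimulated or given LPS/IFNγ over 48 h (LPS at 50 ng/mL, IFNγ at 30 ng/mL), with 3 libraries per group. The second holds 8 libraries of RAW264.7, a mouse macrophage line, either wildtype or Akr1a1 KO. It had the same 48 h schedule and LPS dose, IFNγ at 10 ng/mL, and 2 libraries per group. The methods describe bone marrow pooled within a genotype and clonal replicates of RAW264.7, so replicates may share a source and the p-values then measure only the spread between these cultures or clones. The paper reports the iNOS experiment in RAW264.7 cells, against the label. Pycard, which encodes the adaptor ASC that RAW264.7 cells are known to lack, was at most 0.832 CPM in the 12 libraries labelled BMDM and at most 0.563 CPM in the RAW264.7 libraries. Primary macrophages are known to express it, so the level of this 1 gene goes against the label. Other genes differed between the 2 experiments, each normalized separately. Hif1a averaged 106 CPM in unstimulated wildtype libraries labelled BMDM and 1013 CPM in unstimulated wildtype RAW264.7 libraries. Which cells were sequenced was not settled, and the cells are called "labelled BMDM" throughout. The mice, M-CSF and IFNγ dose given for them are those that go with the label. The 2 unstimulated RAW264.7 libraries that are replicate B of their genotype carry "Stimulated" in their title and were placed by their treatment field.

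HIF-1 is a transcription factor whose alpha subunit is marked for degradation by oxygen-dependent prolyl hydroxylases and then bound by the VHL ubiquitin ligase. When hydroxylation slows, the alpha subunit pairs with ARNT and binds hypoxia response elements, whose core is ACGTG or GCGTG. Nitric oxide and the products of inflammatory signalling are known to act on this system in macrophages, where the alpha subunit is regulated both by transcription and by protein stability. The measurements below are of RNA and hold no information on the protein.

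The promoters of 5 of the genes, Hif1a and Egln1 among the regulators and the HIF targets Bnip3, Ddit4 and Ankrd37, are printed as examples to show the hypoxia response cores, which are in capitals (both strands, so CACGT and CACGC are the cores on the other strand, and the 2 strands overlap in the palindrome CACGTG). They are the 250 bases before the annotated start in RefSeq, build GRCm38.p6, read 5′ to 3′ along the gene: Hif1a at chr12:73907617-73907866, plus strand, Egln1 at chr8:124949255-124949504, minus strand, Bnip3 at chr7:138909507-138909756, minus strand, Ddit4 at chr10:59951771-59952020, minus strand and Ankrd37 at chr8:45999851-46000100, minus strand.
Hif1a: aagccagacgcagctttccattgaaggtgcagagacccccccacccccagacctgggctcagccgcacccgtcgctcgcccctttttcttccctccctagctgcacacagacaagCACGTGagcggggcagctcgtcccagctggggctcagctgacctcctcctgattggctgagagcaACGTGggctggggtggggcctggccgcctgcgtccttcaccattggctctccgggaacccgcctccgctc
Egln1: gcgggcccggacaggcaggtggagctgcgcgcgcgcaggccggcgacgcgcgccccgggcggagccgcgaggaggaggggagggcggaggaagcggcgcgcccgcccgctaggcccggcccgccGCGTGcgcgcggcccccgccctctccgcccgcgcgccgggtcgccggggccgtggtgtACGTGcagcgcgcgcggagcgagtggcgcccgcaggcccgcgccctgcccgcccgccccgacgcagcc
Bnip3: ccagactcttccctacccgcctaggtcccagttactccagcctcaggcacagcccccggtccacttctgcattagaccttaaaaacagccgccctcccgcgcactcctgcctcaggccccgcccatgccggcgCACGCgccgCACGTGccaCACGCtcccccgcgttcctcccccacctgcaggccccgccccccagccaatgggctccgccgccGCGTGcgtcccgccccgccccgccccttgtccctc
Ddit4: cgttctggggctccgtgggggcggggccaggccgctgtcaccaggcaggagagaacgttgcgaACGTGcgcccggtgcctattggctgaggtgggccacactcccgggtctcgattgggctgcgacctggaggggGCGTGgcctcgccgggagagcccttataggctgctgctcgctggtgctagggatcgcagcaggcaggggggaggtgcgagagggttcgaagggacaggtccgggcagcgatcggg
Ankrd37: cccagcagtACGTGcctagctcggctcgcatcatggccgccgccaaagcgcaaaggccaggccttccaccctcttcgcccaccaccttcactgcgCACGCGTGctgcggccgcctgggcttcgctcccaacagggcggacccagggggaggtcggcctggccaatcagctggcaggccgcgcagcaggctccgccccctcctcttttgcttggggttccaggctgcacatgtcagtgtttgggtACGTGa

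Windows of 300 bases, 250 before and 50 after the start, were listed for 8 of the 10 genes, in 10 windows, and not for Bnip3l and Ndrg1. A core lay in 9 of the 10 windows, and 2 or more in 7. The window without a core belonged to Vegfa, at chr17:46032328-46032627 on the minus strand. The other Vegfa window, with 2 cores, lay downstream of it along the gene, at chr17:46025114-46025413. It belongs to a further annotated start, and the counts above include it. The Hilpda windows overlap and share a core. Of all 32851 windows, 43.8% held a core and 20.6% held 2 or more, with ACGTG in 19.6% and GCGTG in 32.4%. In Bnip3, 5 matches lay between 115 and 33 bases before the start. In Ankrd37, 4 lay between 239 and 4 bases before it. The Hif1a window also held 3. These matches are letters in a window and no measure of binding.

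The knocked-out genes were checked first. Nos2, which encodes iNOS, averaged 11100 CPM in stimulated wildtype and 891 CPM in stimulated iNOS KO cells, with 0 counts in unstimulated iNOS KO cells. Akr1a1 was 427 to 675 CPM in wildtype and 21.8 to 370 CPM in Akr1a1 KO RAW264.7 libraries, and its adjusted p did not pass (0.56 unstimulated, 0.643 stimulated, edgeR). Macrophage markers summed to between 5490 and 13000 CPM in libraries labelled BMDM and between 3280 and 12000 CPM in RAW264.7, while neutrophil markers stayed at or below 2.02 CPM and lymphocyte markers at or below 0.693 CPM. Totals ran from 15072109 to 18878107 counts per library in the first experiment and from 11876719 to 44583327 in the second. Levels are CPM scaled by TMM. TMM factors were 0.813 to 0.889 in stimulated and 1.13 to 1.20 in unstimulated libraries labelled BMDM. In bulk RNA, fewer expressing cells and less RNA per cell cannot be told apart.

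**Figure D1:**
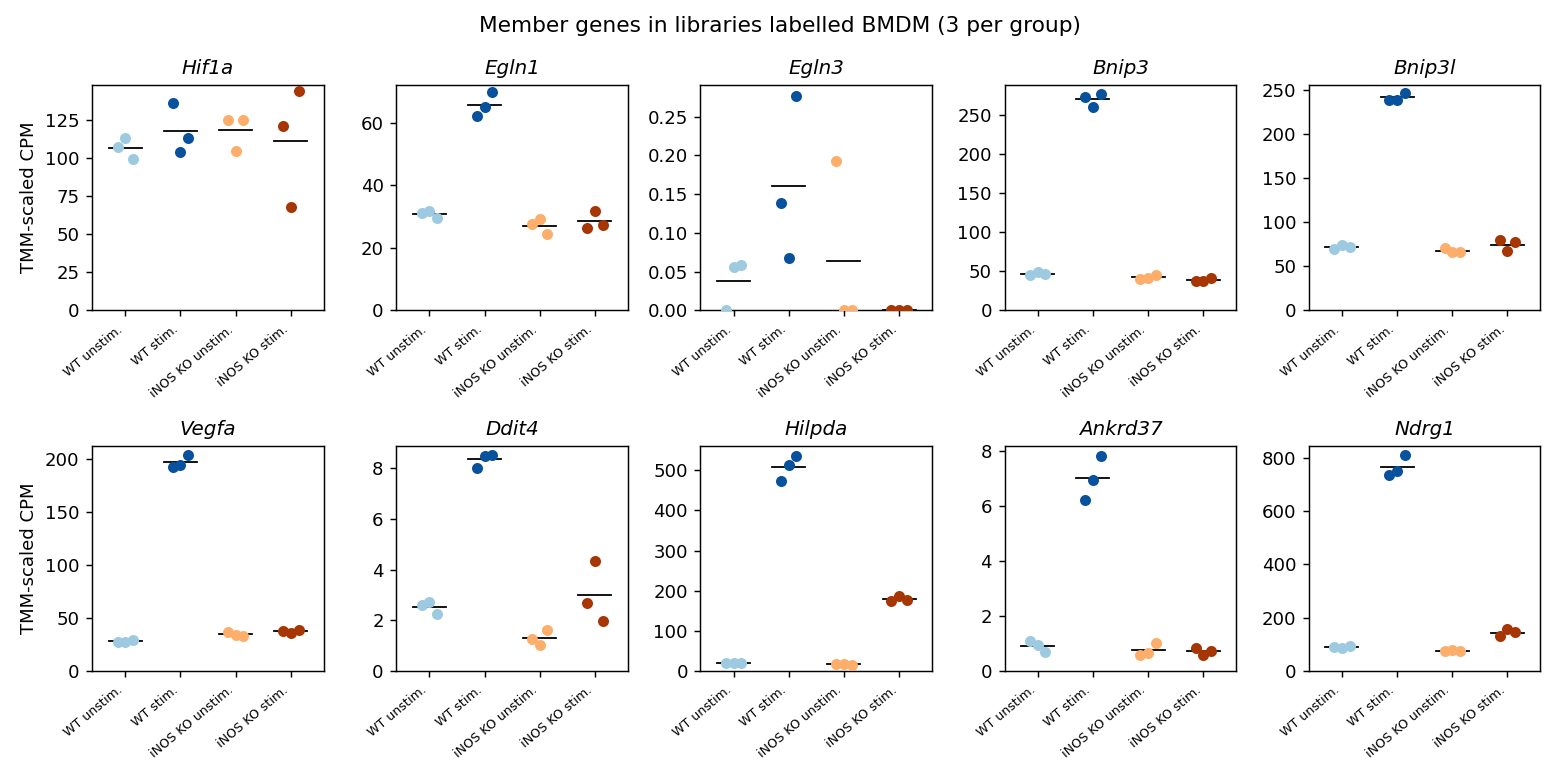
Level of each of the 10 genes in the 12 libraries labelled BMDM, in TMM-scaled CPM on a linear axis from 0 (points, libraries; bars, group means; WT, wildtype). Hif1a overlaps in all 4 groups and Egln3 stays below 0.3 CPM. In the other genes the 3 stimulated wildtype libraries lie above all others. That pattern includes the comparison on which the genes were chosen, and its share over all genes was not counted.

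In wildtype libraries labelled BMDM, 8 of the 10 genes were higher after LPS/IFNγ and none was lower, while Hif1a and Egln3 did not pass (edgeR quasi-likelihood F test, Benjamini-Hochberg adjusted over 18691 genes). Of all genes tested, 32.4% were higher and 28.5% lower. The median change of 9 genes, without Egln3, was 2.53 on the log2 scale, against 0.07 over all genes. Egln3 was left out of medians because of its counts, a decision made after they were seen. These results share the stimulated wildtype libraries with the comparison that chose the genes, so their direction is not independent of the choice.

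Among the regulators, Hif1a, the oxygen-regulated subunit, did not pass. It was 107, 113 and 99.1 CPM in unstimulated and 136, 104 and 113 CPM in stimulated wildtype libraries. The groups overlapped and the log2 change was 0.14 ± 0.18 (SE, n = 3 per group, adjusted p = 0.527, edgeR), with an interval from -0.25 to 0.53. Egln1, the prolyl hydroxylase that marks HIF-alpha and is itself a HIF target, was 31.01, 31.9 and 29.6 CPM and then 62.1, 65.1 and 69.7 CPM, with no overlap. Its log2 change was 1.09 ± 0.09 (SE, adjusted p = 1.16e-08, edgeR). Egln3, a further hydroxylase, had between 0 and 4 counts in any library labelled BMDM and is not read further.

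The mitophagy receptors rose. Bnip3 was 45.1, 48.6 and 46.8 CPM in unstimulated and 274, 260 and 277 CPM in stimulated wildtype libraries, a log2 change of 2.53 ± 0.07 (SE, adjusted p = 8.65e-15, edgeR). Bnip3l, its paralogue (also called Nix), was 69.0, 73.8 and 72.0 CPM and then 239, 239 and 247 CPM, a log2 change of 1.76 ± 0.07 (SE). Neither gene's groups overlapped.

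Of the secreted and stress genes, Vegfa, the angiogenic growth factor, was 27.5, 27.2 and 29.4 CPM and then 192.5, 195 and 204 CPM, a log2 change of 2.81 ± 0.07 (SE). Ddit4 (REDD1), an inhibitor of mTORC1, was low throughout, at 2.59, 2.72 and 2.23 CPM and then 8.03, 8.51 and 8.53 CPM, which is 1.73 ± 0.21 on the log2 scale (SE, adjusted p = 1.73e-06, edgeR). Ndrg1, a stress-responsive gene linked to growth arrest, was 88.3, 86.4 and 92.0 CPM and then 737, 750 and 809 CPM, or 3.11 ± 0.07 (SE). The stimulated libraries lay above the unstimulated ones in each of these genes.

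Hilpda, an inhibitor of the lipase ATGL that keeps fat in lipid droplets, rose most. It was 20.0, 18.8 and 19.8 CPM in unstimulated and 474, 512 and 535 CPM in stimulated wildtype libraries, a log2 change of 4.70 ± 0.08 (SE, adjusted p = 1.55e-17, edgeR). Ankrd37, an ankyrin repeat protein, was 1.10, 0.945 and 0.704 CPM and then 6.23, 6.95 and 7.83 CPM, or 2.91 ± 0.22 (SE). Ankrd37 shares 57 of 1539 exon bases with Ufsp2 on the other strand (GENCODE M21), and whether the counting used strand is not given in the sources used here, so its counts are uncertain. Ufsp2 itself fell by 0.72 on the log2 scale in these cells.

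Per kilobase of gene length, Hilpda was the highest of the 10 in stimulated wildtype cells, at 460 ± 28.1 CPM per kb (SD, n = 3). Bnip3 (120 ± 3.94) and Ndrg1 (116 ± 5.79) followed and overlapped each other, then Bnip3l (62.6 ± 1.12) and Vegfa (46.0 ± 1.41). Hif1a (19.9 ± 2.81) and Egln1 (18.3 ± 1.07) overlapped, as did Ddit4 (4.76 ± 0.159) and Ankrd37 (4.55 ± 0.521). In unstimulated wildtype cells the order was led by Bnip3 at 20.7 ± 0.777 CPM per kb, with Bnip3l, Hif1a and Hilpda between 17.7 and 18.6.

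**Figure D2:**
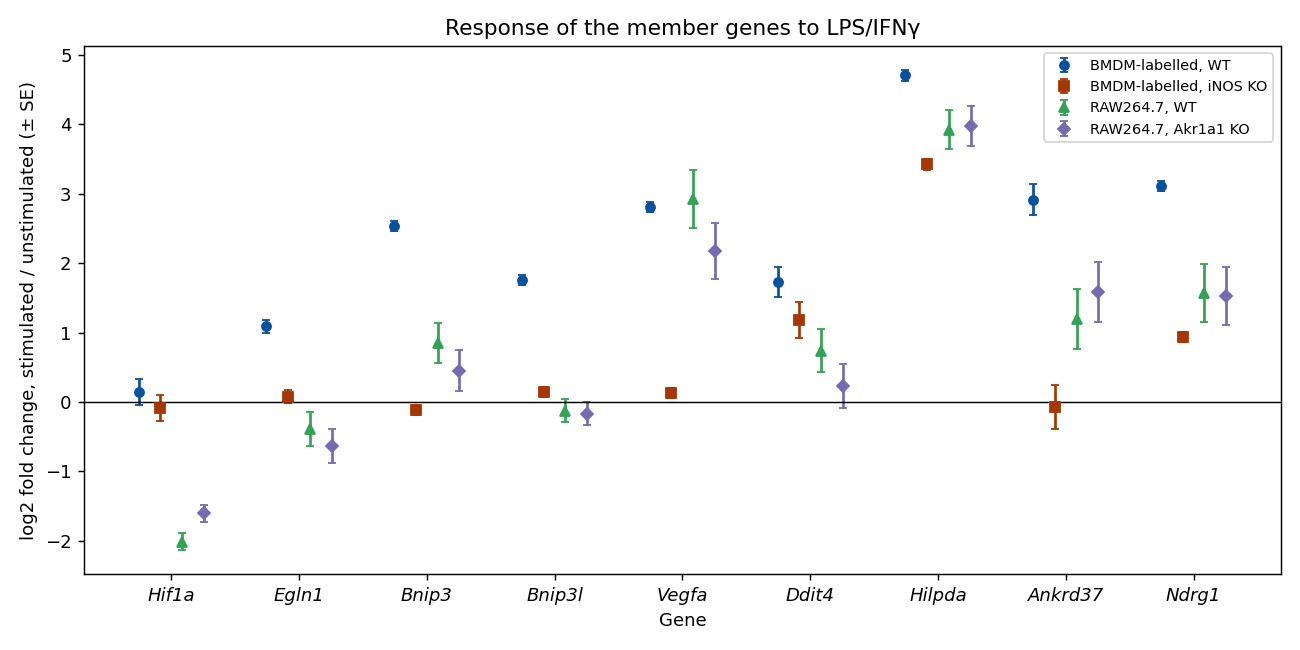
Change from unstimulated to stimulated cells for 9 genes (Egln3 not drawn) in the 4 pairs of groups, as log2 fold change with its standard error. Hilpda is at 3.42 or more in all 4, and Hif1a is below -1.5 in both RAW264.7 genotypes and near 0 in the libraries labelled BMDM.

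In iNOS KO libraries labelled BMDM, 3 of the 10 genes were higher after the same stimulation and none was lower. Of all genes tested, 27.3% were higher and 24.6% lower. The median over 9 genes was 0.13 on the log2 scale, and over all genes it was 0.00 (-0.000322). These libraries, too, are part of the comparison that chose the genes.

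Hilpda was 18.1, 16.1 and 16.1 CPM in unstimulated and 174.5, 187 and 177 CPM in stimulated iNOS KO libraries, a log2 change of 3.42 ± 0.08 (SE, adjusted p = 5.77e-16, edgeR). Ndrg1 was 73.8, 77.2 and 74.6 CPM and then 130, 156 and 146 CPM, or 0.94 ± 0.07 (SE, adjusted p = 7.56e-09, edgeR). Ddit4 was 1.25, 1.05 and 1.61 CPM and then 2.70, 4.33 and 1.97 CPM, or 1.18 ± 0.26 (SE, adjusted p = 0.00109, edgeR). In all 3 the groups did not overlap.

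The other 6 measured genes did not pass. Bnip3 was 40.01, 41.2 and 45.1 CPM and then 37.9, 37.4 and 41.3 CPM, a log2 change of -0.12 ± 0.07 (SE). Vegfa was 36.4, 33.6 and 33.4 CPM and then 38.1, 36.1 and 38.8 CPM, a log2 change of 0.13 ± 0.07. Their adjusted p-values were 0.196 and 0.135 (edgeR), and the intervals ran from -0.27 to 0.04 and from -0.02 to 0.28. Bnip3l (0.14 ± 0.07), Egln1 (0.07 ± 0.09), Ankrd37 (-0.07 ± 0.32) and Hif1a (-0.09 ± 0.18) also had overlapping groups. Hif1a varied most among the stimulated iNOS KO libraries, at 121, 67.8 and 144 CPM. Bnip3l alone passed when 1 library, stimulated iNOS KO replicate B, was left out.

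Stimulated iNOS KO libraries compared with stimulated wildtype libraries are the contrast on which the genes were chosen. In it 9 of the 10 genes, Hif1a excepted, had every iNOS KO library below every wildtype library, where 27.4% of all genes did. Egln3 is 1 of these 9 on counts of 0, 0 and 0 against 2, 1 and 4, and it is left out of the values that follow. The median over 9 genes was -1.70 on the log2 scale against -0.04 over all genes, and 24.2% of all genes were called lower and 24.2% higher. The differences were largest in Ankrd37 (-3.28 ± 0.24, SE), Bnip3 (-2.80 ± 0.07), Ndrg1 (-2.41 ± 0.07) and Vegfa (-2.39 ± 0.07). Bnip3l was at -1.70 ± 0.07, Ddit4 at -1.5 ± 0.21, Hilpda at -1.5 ± 0.07 and Egln1 at -1.21 ± 0.09, and Hif1a at -0.08 ± 0.18. On a linear scale Bnip3 was 6.96-fold lower and Hilpda 2.83-fold lower. The difference between the responses of the 2 genotypes, described in the same way, was -2.69 ± 0.10 for Vegfa, -2.65 ± 0.10 for Bnip3 and -0.55 ± 0.34 for Ddit4, whose interval from -1.28 to 0.17 includes 0. Without stimulated iNOS KO replicate B the value for Ddit4 was -0.90.

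Fibroblast markers moved with genotype and stimulation in these libraries, from at most 0.293 CPM in unstimulated libraries to 3.65 to 4.92 CPM in stimulated wildtype and 11.3 to 16.6 CPM in stimulated iNOS KO libraries, where 5 of 6 markers had a count. Most of this was Dcn, at 13.6 CPM on average in stimulated iNOS KO cells, while Col3a1 was at 0 and Col1a2 at no more than 0.0693 CPM in any library labelled BMDM. Pdgfra went the other way between genotypes, averaging 1.77 CPM in stimulated wildtype and 0.168 CPM in stimulated iNOS KO cells. Of 3 markers tested there, 2 were higher and 1 lower in iNOS KO. The part of these markers in the results was not tested.

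In unstimulated libraries labelled BMDM, which the choice of genes did not use, 1 gene was higher and 1 lower in iNOS KO than in wildtype. Of all genes tested, 1.88% were higher and 4.09% lower. Vegfa averaged 34.5 ± 1.69 CPM in iNOS KO and 28.0 ± 1.19 CPM in wildtype cells (SD, n = 3), a log2 difference of 0.30 ± 0.07 (SE, adjusted p = 0.0149, edgeR). Ddit4 averaged 1.30 ± 0.286 and 2.52 ± 0.255 CPM, a difference of -0.95 ± 0.26 (SE, adjusted p = 0.039, edgeR). The groups did not overlap in either. The other 8 genes did not pass, among them Egln1 (-0.19), Hilpda (-0.22) and Ndrg1 (-0.24). Vegfa was no longer called without unstimulated wildtype replicate A or B or unstimulated iNOS KO replicate A, where its difference was 0.257 to 0.283. Ddit4 lost its call without any 1 of 8 libraries, with a difference of -1.02 to -0.814 and adjusted p up to 0.151. These 8 include the 3 stimulated wildtype libraries, which are not in this comparison and enter it only through the shared spread (adjusted p = 0.0539 to 0.0571). Ndrg1 was called lower without stimulated iNOS KO replicate A or B, and Hilpda without replicate B.

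In wildtype RAW264.7 cells, 3 of the 10 genes rose after stimulation, Vegfa, Hilpda and Ndrg1, and Hif1a fell. Of all 19569 genes tested, 18.5% were higher and 19.2% lower. The median over 9 genes was 0.85 on the log2 scale, against -0.03 over all genes. In Akr1a1 KO cells 4 rose, these 3 and Ankrd37, and Hif1a fell, with 19.8% of all genes higher and 19.4% lower. The median was 0.45, against 0.02.

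**Figure D3:**
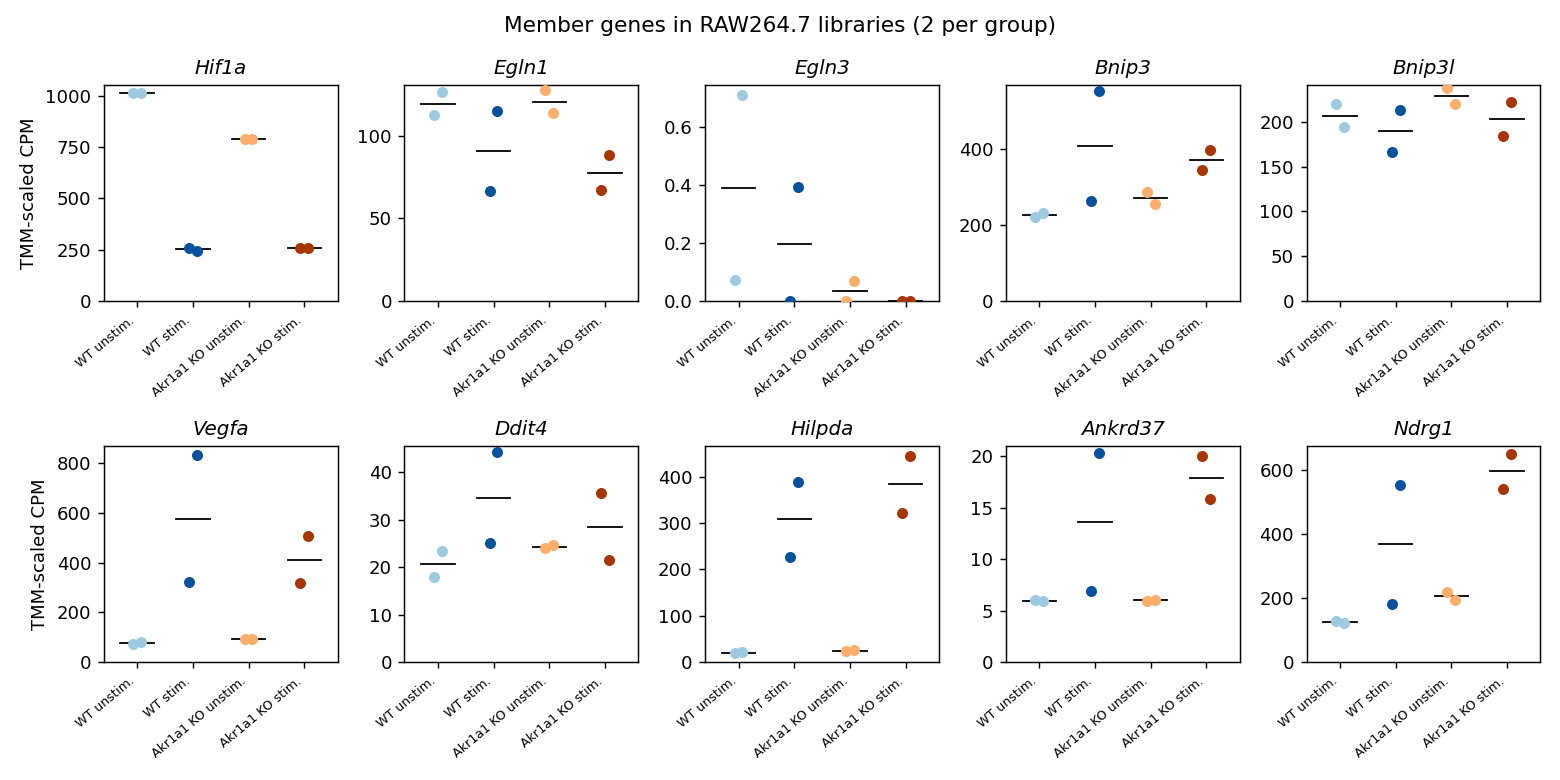
Level of the 10 genes in the 8 RAW264.7 libraries, in TMM-scaled CPM on a linear axis from 0 (points, libraries, replicate A on the left; bars, group means; WT, wildtype). Hif1a falls from 789 to 1014 CPM to 244 to 261 CPM in both genotypes, and the 2 stimulated wildtype libraries lie far apart for Vegfa, Ndrg1 and Ankrd37.

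Hif1a was 1014 and 1013 CPM in unstimulated and 260 and 244 CPM in stimulated wildtype cells, a log2 change of -2.01 ± 0.12 (SE, n = 2 per group, adjusted p = 1.13e-05, edgeR). In Akr1a1 KO cells it was 789 and 790 CPM and then 261 and 258 CPM, a change of -1.60 ± 0.12 (SE, adjusted p = 3.17e-05, edgeR). It was the only one of the 10 called lower after stimulation in both genotypes. The tables were normalized separately, so the level in RAW264.7 cells and the 67.8 to 144 CPM in libraries labelled BMDM are set side by side only.

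Hilpda was 19.0 and 21.5 CPM in unstimulated and 227 and 390 CPM in stimulated wildtype cells, and 23.9 and 24.9 CPM and then 321 and 446 CPM in Akr1a1 KO cells. The changes were 3.92 ± 0.28 and 3.97 ± 0.29 (SE, adjusted p = 2.52e-05 and 2.38e-05, edgeR). Vegfa was 73.7 and 78.4 CPM and then 322 and 832 CPM in wildtype, and 92.1 and 90.6 CPM and then 317 and 507 CPM in Akr1a1 KO cells, changes of 2.92 ± 0.42 and 2.17 ± 0.41 (SE, adjusted p = 0.000848 and 0.00321, edgeR). In both genes the stimulated libraries lay above the unstimulated ones.

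Ndrg1 was 128 and 121 CPM and then 182 and 555 CPM in wildtype cells, and 218 and 194 CPM and then 542 and 651 CPM in Akr1a1 KO cells, changes of 1.57 ± 0.42 and 1.53 ± 0.42 (SE, adjusted p = 0.0188 and 0.0197, edgeR). Ankrd37 was 6.03 and 5.89 CPM and then 6.92 and 20.3 CPM in wildtype, and 5.97 and 6.02 CPM and then 20.0 and 15.8 CPM in Akr1a1 KO cells. It passed in the KO (1.58 ± 0.44, SE, adjusted p = 0.0204, edgeR) and missed in wildtype (1.20 ± 0.43, SE, adjusted p = 0.0592, edgeR). Bnip3 was 222 and 231 CPM and then 264 and 553 CPM in wildtype, which missed as well (0.85 ± 0.29, SE, adjusted p = 0.0511, edgeR). In Akr1a1 KO cells Bnip3 was 287 and 256 CPM and then 344 and 399 CPM, which did not pass (0.45 ± 0.29, SE, adjusted p = 0.261, edgeR). It was called there without either stimulated wildtype library (adjusted p = 0.0184 and 0.0183), with log2 changes of 0.453 and 0.454. Egln1, Bnip3l and Ddit4 did not pass in either genotype, and Egln3 had 1, 33, 0 and 7 counts in the wildtype and 0, 2, 0 and 0 in the Akr1a1 KO libraries, unstimulated first.

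Replicate B was higher than replicate A in 8 of 9 genes in stimulated wildtype RAW264.7 cells, by up to 3.04-fold in Ndrg1, while in unstimulated wildtype cells the ratio of B to A ran from 0.881 to 1.30. In stimulated Akr1a1 KO cells it ran from 0.605 (Ddit4) to 1.60 (Vegfa). Without stimulated wildtype replicate A the log2 changes in wildtype cells were 1.35 for Bnip3, 1.16 for Ddit4 and 1.83 for Ankrd37. With all libraries they were 0.85, 0.74 and 1.20. Over all single libraries left out they ran from 0.271 to 1.35, from 0.321 to 1.16 and from 0.269 to 1.83. Without either unstimulated wildtype library Ndrg1 was no longer called, with log2 changes of 1.61 and 1.52 and adjusted p of 0.0749 and 0.0967. In the Akr1a1 KO comparison Ankrd37 was no longer called without unstimulated replicate A, unstimulated replicate B or stimulated replicate A. Its log2 changes were then 1.57, 1.59 and 1.39. Ndrg1 lost its call there without any 1 of the 4 Akr1a1 KO libraries, with log2 changes from 1.41 to 1.65 and adjusted p from 0.0571 to 0.111. Egln1, at 128 and 114 CPM and then 66.9 and 88.1 CPM in Akr1a1 KO cells, did not pass (-0.64 ± 0.25, SE, adjusted p = 0.0735, edgeR) but was called lower without either stimulated wildtype library (adjusted p = 0.0102 and 0.0105) and with the replicate letter as a block (-0.663, adjusted p = 0.0403).

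Akr1a1 KO and wildtype RAW264.7 cells were compared in both states. None of the 10 genes was called by edgeR in unstimulated cells, in stimulated cells or in the difference between the responses, where 0.583%, 0.286% and 0.0204% of all genes were called. DESeq2 also called 0 in each. Without a filter on low counts edgeR called Ndrg1 higher in Akr1a1 KO cells in both states. Its log2 difference was then 0.716 in unstimulated and 0.695 in stimulated cells (adjusted p = 0.00201 and 0.00309, edgeR). At an unadjusted p under 0.05 in the main fit, the counts in the same order were 1, 0 and 1, Hif1a in both cases. The share of all genes at that threshold was not counted, so nothing is read from these counts. Ndrg1 was called higher in stimulated Akr1a1 KO cells when stimulated wildtype replicate B was left out (log2 difference 1.69, adjusted p = 0.0139), against 0.69 with all libraries. The intervals left room for sizeable differences. Among stimulated cells they ran from -1.38 to 0.41 for Vegfa, from -0.25 to 1.64 for Ndrg1 and from -0.26 to 0.89 for Hilpda, and only for Hif1a (-0.23 to 0.32) and Bnip3l (-0.27 to 0.47) did they stay within 0.5 of 0. In simulated counts modelled on this table, edgeR called 96 of 100 genes changed by 4-fold and 9 of 100 changed by 2-fold. The simulated comparison was stimulated against unstimulated wildtype, with the same spread for every gene. The rates are therefore not those of the comparisons between genotypes.

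In all, 3 lists of other pathway genes were read in the same fits. They were chosen with earlier results of these data known, and their counts are descriptions beside the shares over all genes. Of 29 other HIF targets outside glycolysis tested in libraries labelled BMDM, 22 were higher and 5 lower in wildtype cells after stimulation (median log2 change 1.43), beside 32.4% and 28.5% of all genes. In iNOS KO cells 11 were higher and 7 lower (median 0.43), against 27.3% and 24.6% of all genes. Adm, the vasodilator peptide adrenomedullin, rose by 4.57 ± 0.28 (SE) in wildtype cells, Ero1a, an oxidase of disulfide bond formation, by 2.81 ± 0.08, and Plin2, a lipid droplet coat protein, by 2.19 ± 0.07. Car12, a carbonic anhydrase (-3.01 ± 0.18), Cxcr4, a chemokine receptor (-2.29 ± 0.20), and Angptl4, an inhibitor of lipoprotein lipase (-2.01 ± 0.20), fell. In iNOS KO cells Rab20 (2.58 ± 0.09) and Plin2 (2.37 ± 0.07) were among those that rose.

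Stimulated iNOS KO cells had 22 of these 29 genes lower and 4 higher than stimulated wildtype cells (median -1.21), where 24.2% of all genes were lower and 24.2% higher. The theme of hypoxia genes was itself chosen on this comparison, so nothing is read from these counts. The lowest among genes with a mean log2 CPM over 0 were Stc2, a secreted glycoprotein (-2.95 ± 0.21, SE), Adm (-2.60 ± 0.23) and Ero1a (-2.27 ± 0.07). Car12 (1.19 ± 0.21) and Sap30, a subunit of a histone deacetylase complex (0.56 ± 0.08), were among those higher. Of 15 glycolytic HIF targets, 12 were lower and 1 higher (median -0.76), Pfkfb3 (-2.49 ± 0.08), Hk2 (-1.63 ± 0.06) and Slc2a1 (-1.36 ± 0.06) the lowest. In wildtype cells after stimulation 11 of those 15 were higher and 1 lower (median 0.83). In iNOS KO cells 11 were higher and 2 lower (median 0.46). Of all genes, 32.4% were higher and 28.5% lower in wildtype and 27.3% and 24.6% in iNOS KO.

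Of 14 components of the HIF pathway, 7 were higher and 2 lower after stimulation in wildtype libraries labelled BMDM, and 7 higher and 3 lower in iNOS KO, beside 32.4% and 28.5% of all genes in wildtype and 27.3% and 24.6% in iNOS KO. Vhl, the ubiquitin ligase subunit, rose by 0.93 ± 0.08 (SE) in wildtype cells and was 0.15 ± 0.08 in iNOS KO cells, which did not pass. Cited2, an inhibitor of HIF binding to p300, rose in both (0.61 and 0.67). Epas1, the alpha subunit HIF-2α, was low, at 2.73 CPM in unstimulated and 0.207 CPM in stimulated wildtype cells and at 6.28 and 2.37 CPM in iNOS KO cells. Arnt2, a partner of the alpha subunits, was at most 0.222 CPM in unstimulated libraries and averaged 14.2 CPM in stimulated wildtype and 4.30 CPM in stimulated iNOS KO cells. Between the stimulated groups 4 components were higher and 7 lower in iNOS KO, beside 24.2% and 24.2% of all genes. The theme was chosen on this comparison, so nothing is read from these counts. Ep300, the coactivator p300, was at -0.69 ± 0.08. Eloc, another component, went the other way, averaging 36.2 CPM in stimulated iNOS KO and 18.7 CPM in stimulated wildtype cells.

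**Figure D4:**
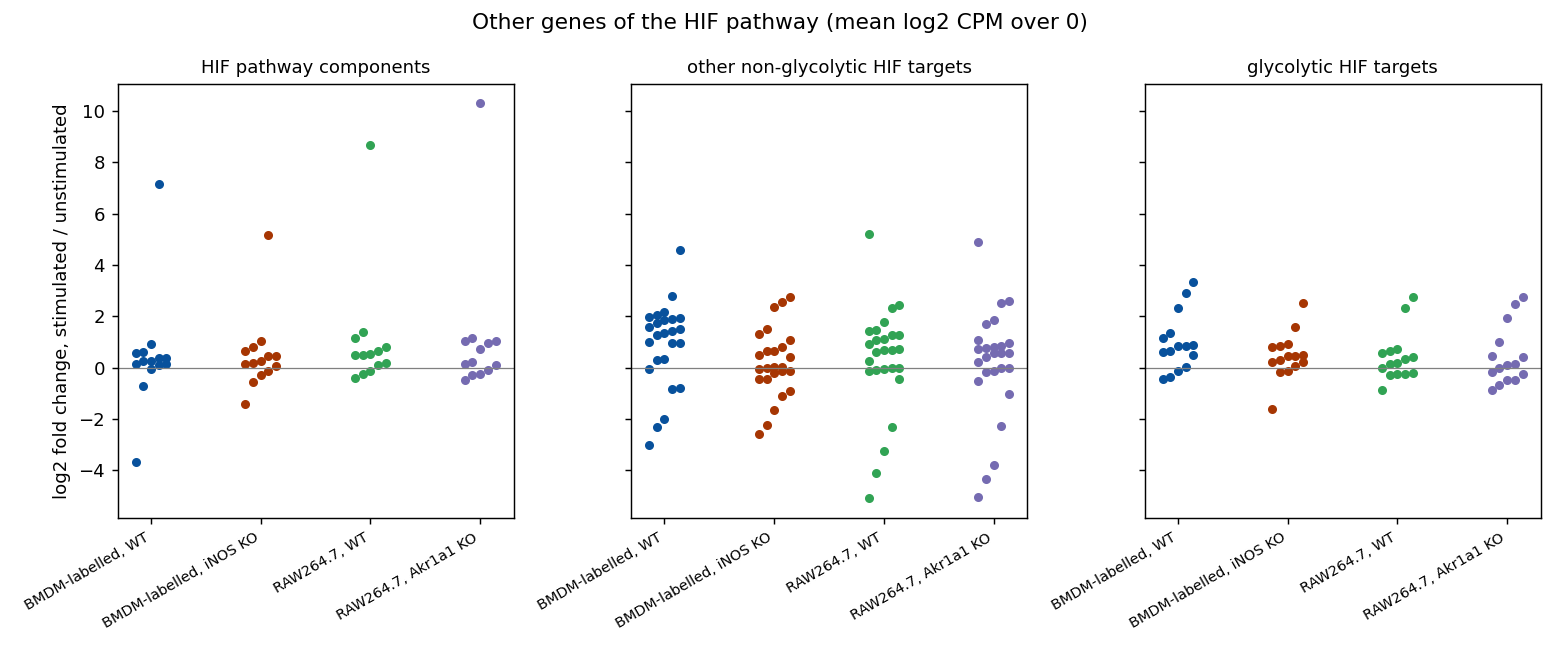
Log2 fold change from unstimulated to stimulated cells for each gene of the 3 lists with a mean log2 CPM over 0 (points, genes) in the 4 pairs of groups. Most other targets lie above 0 in wildtype libraries labelled BMDM, while the 4 points above 5 among the components are all Arnt2, whose fold rests on at most 5 counts in the unstimulated libraries.

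In RAW264.7 cells, 14 of 28 other targets were higher and 4 lower in wildtype after stimulation (median 0.65), and 9 higher and 5 lower in Akr1a1 KO (median 0.49). Of all genes, 18.5% were higher and 19.2% lower in wildtype and 19.8% and 19.4% in Akr1a1 KO. Plin2 (2.45 ± 0.19 and 2.54 ± 0.19, SE) and Rab20 (2.33 ± 0.25 and 2.60 ± 0.25) were among those that rose in both genotypes, and Cxcr4 was the lowest in both (-5.08 and -5.03). Of 13 components, 6 were higher and 0 lower in each genotype. Ep300 rose by 0.80 ± 0.13 and 1.16 ± 0.13. Of 15 glycolytic targets, 4 were higher and 1 lower in wildtype and 4 higher and 3 lower in Akr1a1 KO cells. Between genotypes 1 of the 28 other targets, Plod2, a collagen lysyl hydroxylase, was called in both states, at 126 to 157 CPM in Akr1a1 KO libraries and 0 counts in the wildtype libraries.

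Across the 12 libraries labelled BMDM, the genes whose log2 CPM followed the mean profile of 9 of the 10 most closely were Ero1a (Pearson r = 0.994), Dctn4 (0.992), Rcbtb1 (0.992), Senp2 (0.991) and Ctnnb1 (0.990), out of 8565 protein-coding genes with a mean log2 CPM over 3. Each of the 9 was also set against the mean of the other 8. There r was 0.0846 for Hif1a and between 0.794 and 0.992 for the rest. In the 8 RAW264.7 libraries Hif1a was at -0.724, Egln1 at -0.188 and Bnip3l at 0.10, and the others lay between 0.507 and 0.955. The libraries share groups of very different level, so these values describe the pattern and carry no p.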

How the data were processed

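RNA from mouse macrophages was enriched for poly(A) and sequenced. According to the methods and the submitters' processing notes, which name CASAVA, STAR and mm10, the authors filtered and aligned the reads and deposited whole-number counts per gene in 2 tables of 56748 genes, without normalization. The gene positions in the tables matched 0 of 10 starts in GENCODE M21 (GRCm38), so they are not printed. No replicate was pooled in the tables.

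A gene entered the fit of its table when its counts summed to 10 or more (18691 genes in 12 libraries, 19569 in 8). The fit had 1 mean per group, TMM scaling and the quasi-likelihood F test of edgeR 4.0.16 under R 4.3.3. P-values were adjusted over all genes of a table, and an adjusted p under 0.05 was called. Standard errors were derived from the F statistic, and intervals are at 95%. DESeq2 1.42.0, its size factors, no filter, a replicate block (over the table or within each genotype), a fold change limit and leaving out each library were alternatives. The sources do not say that replicate letters mark a shared source. Deviations of same-letter libraries correlated at 0.404, 0.497 and 0.121 between unstimulated and stimulated iNOS KO. Unstimulated A with stimulated C, of different letters, reached 0.402 there, so pairing of these groups was not settled. In wildtype libraries labelled BMDM same-letter values were -0.132, -0.258 and 0.0844, and letters were not taken to pair them. The main fits used no pairing. Gene names with several identifiers were kept as the identifier with the highest mean. Named list genes were the 3 highest and 3 lowest of a list with a mean log2 CPM over 0, except 1 gene that is counted with its list and not reported here. The fits were tested on simulated data, and the limit for passing was set on 4-fold changes after few 2-fold changes were recovered in the RAW264.7 table. Figures used matplotlib 3.10.9 under Python 3.11.15. The genes and lists were chosen with earlier results of these data known.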

Additional observations from a re-analysis of the deposited data

Results flagged for a closer look

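Stc2, a HIF target outside the 10 genes, moved in opposite directions after stimulation in the 2 genotypes labelled BMDM. Its level was low, averaging 3.87 CPM in unstimulated and 7.78 CPM in stimulated wildtype libraries. In iNOS KO it averaged 1.89 CPM and then 1.01 CPM, with at most 18 counts in a stimulated library. Every stimulated wildtype library lay above every unstimulated one (log2 change 1.00 ± 0.17, SE, n = 3 per group), and every stimulated iNOS KO library lay below every unstimulated one (-0.92 ± 0.25). The difference between the changes was -1.92 and was not tested, since the gene was named for its value in the stimulated comparison, which enters that difference.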

How the results depend on the processing

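Of 2097 values recomputed under alternatives, 1923 were labelled the same and 86 counts or untested values moved. Among tested values 38 changed sign, 20 lost and 30 gained the call. The cause of these changes was not tested. The share of all genes called was not counted under the alternatives, so counts of calls there have no such share beside them. Counts close to the main count were labelled the same. Untested values that shifted by less than the spread between replicates were too, even where their sign changed. In libraries labelled BMDM the response counts of the 10 genes were the same with every alternative but the fold limit and single libraries. Requiring an absolute log2 fold change over 1 left 0 higher and 0 lower in unstimulated iNOS KO against wildtype, and no filter gave 2 lower; without a filter 2 glycolytic genes were lower in the wildtype and 1 in the iNOS KO response. In RAW264.7 cells DESeq2, no filter and the crossed block each gave 6 of the 10 genes higher in wildtype. In the Akr1a1 KO response no filter gave 2 of the 10 genes lower, 14 other targets higher and 1 component lower. It also called 1 of the 10 genes, Ndrg1, higher between genotypes in each state. The difference of Ankrd37 between genotypes became -0.000106 in unstimulated cells without a filter. The fold limit left fewer list genes. In the wildtype response labelled BMDM it left 3 other targets lower, 1 component higher and 1 lower, and 5 glycolytic genes higher and 0 lower. In the iNOS KO response it left 6 other targets higher and 4 lower, 2 components higher and 1 lower, and 2 glycolytic genes higher and 1 lower. Between stimulated iNOS KO and wildtype it left 2 other targets higher, 1 component higher and 1 lower, and 0 glycolytic genes higher and 6 lower. In RAW264.7 cells it left 9 other targets, 3 components and 2 glycolytic genes higher and 0 glycolytic lower in wildtype, and 2 glycolytic genes higher and 0 lower in Akr1a1 KO.

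The correlation check did not settle whether replicate letters pair the iNOS KO groups, where neither block changed a call of the 10 genes. Letters were not taken to pair other groups labelled BMDM, and RAW264.7 groups hold only 2 pairs. Same-letter correlations over all pairs of groups were -0.517 to 0.497 in libraries labelled BMDM and -0.165 to 0.438 in RAW264.7. Different-letter correlations were -0.5 to 0.477 and -0.438 to 0.165. With 2 libraries per RAW264.7 group the different-letter values are the same-letter values with the sign turned, so they are no comparator. The same-letter value between unstimulated and stimulated cells was 0.438 in wildtype and 0.103 in Akr1a1 KO RAW264.7. In all, 0 libraries correlated best with their own letter in every group, a rule that also spans the genotypes. The replicate block gave 2 of the 10 genes lower in the Akr1a1 KO response and moved Ndrg1 to 0.0449 in the difference of responses. A block within each genotype, added after seeing the data, gave in the RAW264.7 responses 6 of the 10 genes higher and 1 component lower in wildtype, and 2 of the 10 genes lower, 14 other targets higher and 1 component lower in Akr1a1 KO, with Ndrg1 at 0.17 in their difference. The crossed letters, swapped in both Akr1a1 KO groups, were chosen after seeing the data. Counts of calls for the 10 genes in the comparison that chose them were not run.

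Leaving out single libraries gave, for the 10 genes, 0 to 1 higher and 0 to 3 lower in unstimulated iNOS KO against wildtype, 2 to 6 higher and 1 to 2 lower in the wildtype and 2 to 5 higher and 1 to 2 lower in the Akr1a1 KO RAW264.7 response, and 0 to 1 higher in stimulated Akr1a1 KO against wildtype. Their median in stimulated iNOS KO against wildtype was -1.84 to -1.68. Glycolytic genes were 0 to 1 higher in that comparison, and 1 to 2 (wildtype) and 1 to 2 (iNOS KO) lower in the responses labelled BMDM, 1 to 2 (wildtype) and 1 to 4 (Akr1a1 KO) lower in RAW264.7. Components were 0 to 1 lower in the Akr1a1 KO and other targets 8 to 16 higher in the wildtype RAW264.7 response, the latter 8 and 9 without unstimulated wildtype replicates A and B. Where a RAW264.7 group was left with 1 library, that library was assumed to vary like the other groups. The following values changed sign and were not called with all libraries, and of their extremes only Egln1 at -0.784, without stimulated wildtype replicate B, was called. The ranges were, in the iNOS KO response, for Ankrd37 -0.229 to 0.219, Egln1 -0.00698 to 0.137, Hif1a -0.32 to 0.167. The ranges were, in stimulated Akr1a1 KO against wildtype, Ankrd37 -0.206 to 1.36, Bnip3 -0.601 to 0.478, Bnip3l -0.0965 to 0.278, Ddit4 -0.722 to 0.18, Egln1 -0.598 to 0.201, Hif1a -0.0159 to 0.0625, Hilpda -0.0511 to 0.739, Vegfa -1.04 to 0.34. The ranges were, in unstimulated Akr1a1 KO against wildtype, Ankrd37 -0.0108 to 0.0436, Egln1 -0.0705 to 0.0997. The ranges were, in the difference of RAW264.7 responses, Ankrd37 -0.25 to 1.32, Bnip3 -0.895 to 0.183, Bnip3l -0.271 to 0.103, Egln1 -0.648 to 0.151, Hilpda -0.351 to 0.439, Ndrg1 -0.683 to 0.936, Vegfa -1.34 to 0.0431. The ranges were, in the Akr1a1 KO response, Ddit4 -0.185 to 0.563. The ranges were, in the wildtype RAW264.7 response, Bnip3l -0.268 to 0.105, Egln1 -0.784 to 0.0132. Hif1a also changed sign in the comparisons labelled BMDM that were described without a test. Its range was -0.311 to 0.176 in stimulated iNOS KO against wildtype and -0.461 to 0.0256 in the difference of responses.

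With 2 libraries per group, 2-fold changes in the wildtype RAW264.7 response were mostly missed in simulation.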
